A study of Mus musculus with 17 samples.

Results

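The guanylate-binding protein (GBP) and immunity-related GTPase (IRG) genes examined here were Gbp2b, Gbp2, Gbp3, Gbp4, Gbp5, Gbp7, Irgm1, Igtp and Iigp1, which are 9 of the 56953 genes in the deposited count table. They were chosen by symbol, and the choice started from Gbp2b because that gene had counts only in the libraries of mice lacking chromogranin A (CgA). The values of Gbp2b are therefore given as a description, without a test. The other 8 genes were tested across all 23062 genes that passed the filter on low counts, and all 9 genes passed it.

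RNA of the prefrontal cortex of 8-month-old B6C3F1/J mice was sequenced as poly(A) libraries from 3 genotypes. WT mice (n = 5) carried neither allele. PS19 mice (n = 6, labelled hTau in the deposited records) carried human Tau, isoform 1N4R with the P301S change, driven by the Prnp promoter from a transgene on chromosome 3. CgA-KO/PS19 mice (n = 6) carried the same transgene and a congenital, whole-body deletion of Chga, the gene of CgA. The knockout line was made on a mixed 129/SvJ and C57BL/6 background and was backcrossed to C57BL/6J and then to B6C3F1/J before the cross with PS19. No knockout without the transgene was sequenced in these samples, so loss of CgA and any other difference carried by the knockout line cannot be told apart. Mice of both sexes were used, and the labels do not give the sex of each library.

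GBPs and IRGs are large families of GTPases that interferons, above all interferon gamma, induce in many cell types. GBPs assemble on the membranes of intracellular pathogens and pathogen-containing vacuoles and promote inflammasome activation. IRGs act on the same vacuoles, and the IRGM proteins, to which Irgm1 and Igtp (also called Irgm3) belong, guard host membranes and are linked to autophagy, whereas Iigp1 is an effector IRG. In the brain, interferon induces these genes in microglia, astrocytes, endothelial cells and neurons.

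Chga was at 163 ± 11.9 CPM (TMM-normalised counts, scaled by library size; SD) in WT and 168 ± 6.68 CPM in PS19 libraries, and had 0 counts in all 6 CgA-KO/PS19 libraries. Total counts ranged from 8838334 to 227651681 per library, with WT replicate 4 the shallowest. In all 17 libraries a count of 3 was held by more genes than a count of 2 or 4, and in 13 it was the most frequent low count, while a count of 1 was the most frequent in the other 4. The counts were therefore not single fragments, and 1 fragment was taken as roughly 3 counts. A count of 0 was read as a limit of 9 counts, which was 1.03 CPM in WT replicate 4 and at most 0.260 CPM in every other library. The cortical label did not describe all libraries equally. The summed level of 12 striatum markers ranged from 1145 to 3242 CPM in WT libraries, from 210.0 to 1819 CPM in CgA-KO/PS19 libraries and from 172 to 227 CPM in PS19 libraries, and 12 of the 12 passed the test as higher in WT than in PS19. Replicates 4 to 6 of PS19, like replicates 1 and 3 of CgA-KO/PS19, were among the most alike libraries, with an SD of the log2 ratio of 0.216 between PS19 replicates 4 and 5 and of 0.255 between CgA-KO/PS19 replicates 1 and 3, against 0.685 for the least alike pair of 1 genotype. These differences were at least 6.17 times the counting noise, which cannot show whether the libraries came from different mice. The labels give them as separate samples, so every library was kept as its own sample. Results with those libraries summed are given beside the results they change. The percentage of counts from mitochondrial genes ranged from 3.84 to 18.2 in CgA-KO/PS19, from 2.56 to 4.59 in PS19 and from 3.53 to 7.94 in WT libraries, and replicate 4 was the only knockout library within the PS19 range. In bulk RNA, fewer cells of a type and less RNA per cell cannot be told apart.

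Of the genes, 5 lie in 1 cluster on chromosome 3 (GRCm38), all on the plus strand, in the order Gbp5, Gbp7, Gbp3, Gbp2b and Gbp2. The cluster spans chr3:142493978-142638008, or 144 kb, and Gbp2b occupies chr3:142594847-142619179. Gbp4 lies on chromosome 5 at chr5:105115767-105139586 on the minus strand, where its annotated gene overlaps Gbp8 and Gbp9. Irgm1 (chr11:48861968-48871683, minus strand) and Igtp (chr11:58199556-58207591, plus strand) lie on chromosome 11, the latter overlapping its paralog Irgm2. Chga lies on chromosome 12.

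Short stretches upstream of the RefSeq starts are shown because these genes are classed as interferon targets and because Gbp2b, at 0 counts in 11 of the 17 libraries, can be set beside its expressed neighbours. Each stretch is 30 bases of the gene strand, 5′ to 3′, from RefSeq (GRCm38.p6). Capitals mark matches to the core of the interferon-stimulated response element (ISRE), searched as GAAA, any 2 bases and GAAA, or TTTC, any 2 bases and TTTC on the other strand. Overlapping matches are shown as 1 run.
Gbp2b: gtacttctaaTTTCACTTTCttctttatca
Gbp2: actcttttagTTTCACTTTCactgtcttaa
Gbp3: gacacagTTTCAGTTTCTATTTCccagatc
Gbp5: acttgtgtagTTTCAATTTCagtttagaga
Gbp7: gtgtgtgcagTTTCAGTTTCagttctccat
Irgm1: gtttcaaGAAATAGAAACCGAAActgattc
Igtp: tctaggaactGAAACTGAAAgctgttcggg

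The Gbp2b stretch is chr3:142594700-142594729 and that of Gbp2 is chr3:142620594-142620623, both on the plus strand. Those of Gbp3, Gbp5 and Gbp7 are chr3:142559992-142560021, chr3:142496759-142496788 and chr3:142530273-142530302, also on the plus strand. Those of Irgm1 and Igtp are chr11:48871428-48871457 on the minus strand and chr11:58199512-58199541 on the plus strand.

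All 7 genes searched held the ISRE core within 250 bases of a start, against 2.98% of all 32851 promoters searched over the same length. That share counts promoters, not genes, and a further promoter of Gbp3 held no match. Gbp2b and Gbp2 held the same 10 letters, TTTCACTTTC, at positions -137 to -128 and -59 to -50 from the start. The core of the gamma-activated site, TTC, any 3 bases and GAA, which reads alike on both strands, was in 3 of the 7 genes (Gbp5, Gbp7 and Igtp), against 7.02% of all promoters. Among the other GBP and IRG genes searched, 5 of 10 held the ISRE core and 5 of 10 that of the gamma-activated site. A match describes the letters of the reference only, and GENCODE starts differ: the stretches of Gbp2 and Irgm1 reach into a first exon of the longest GENCODE model, and that of Gbp5 lies within its gene model, whose noncoding transcript starts earlier. Gbp4 and Iigp1 were not among the genes searched here.

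Gbp2b, which encodes a GBP also known as Gbp1, had 71, 98, 190, 109, 98 and 74 counts in CgA-KO/PS19 replicates 1 to 6. It had 0 counts in all 5 WT and all 6 PS19 libraries. The knockout libraries were thus all above the limit of 9 counts, and no library of either other genotype held a read assigned to the gene. The level in CgA-KO/PS19 was 1.53 ± 0.498 CPM (SD, n = 6), with a lowest value of 0.969, a median of 1.54 and a highest value of 2.14 CPM. Set against the highest per-library limit of the genotypes at 0, this mean was at least 9.33-fold higher than in PS19. Against WT it was at least 1.49-fold higher, a bound set by WT replicate 4, and at least 5.88-fold higher without that library. Replicates 1 to 6 were at 1.27, 1.95, 1.05, 0.969, 1.81 and 2.14 CPM. Their mitochondrial shares, in the same order, were 15.3, 18.2, 13.8, 3.84, 6.63 and 10.9%, and the part of this share was not tested. Leaving out each knockout library in turn gave means of 1.41 to 1.64 CPM.

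Gbp2b was chosen for having counts only in the knockout, so its place in the following count was fixed by that choice. Of the 56953 genes in the table, 39993 had a count in any library. At 0 counts in all 11 WT and PS19 libraries were 18454 genes, which include those without a count in any library. Of these, 5 had at least 1 count in all 6 CgA-KO/PS19 libraries, and Gbp2b alone of the 5 exceeded 9 counts in each. The other 4 were the noncoding or unclassified loci Gm36823, Gm12576, Gm38378 and Gm37513, with a lowest knockout count between 5 and 9. None of the 2724 windows of 100 bases in the annotated Gbp2b transcript occurred in a transcript of another gene.

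**Figure D1:**
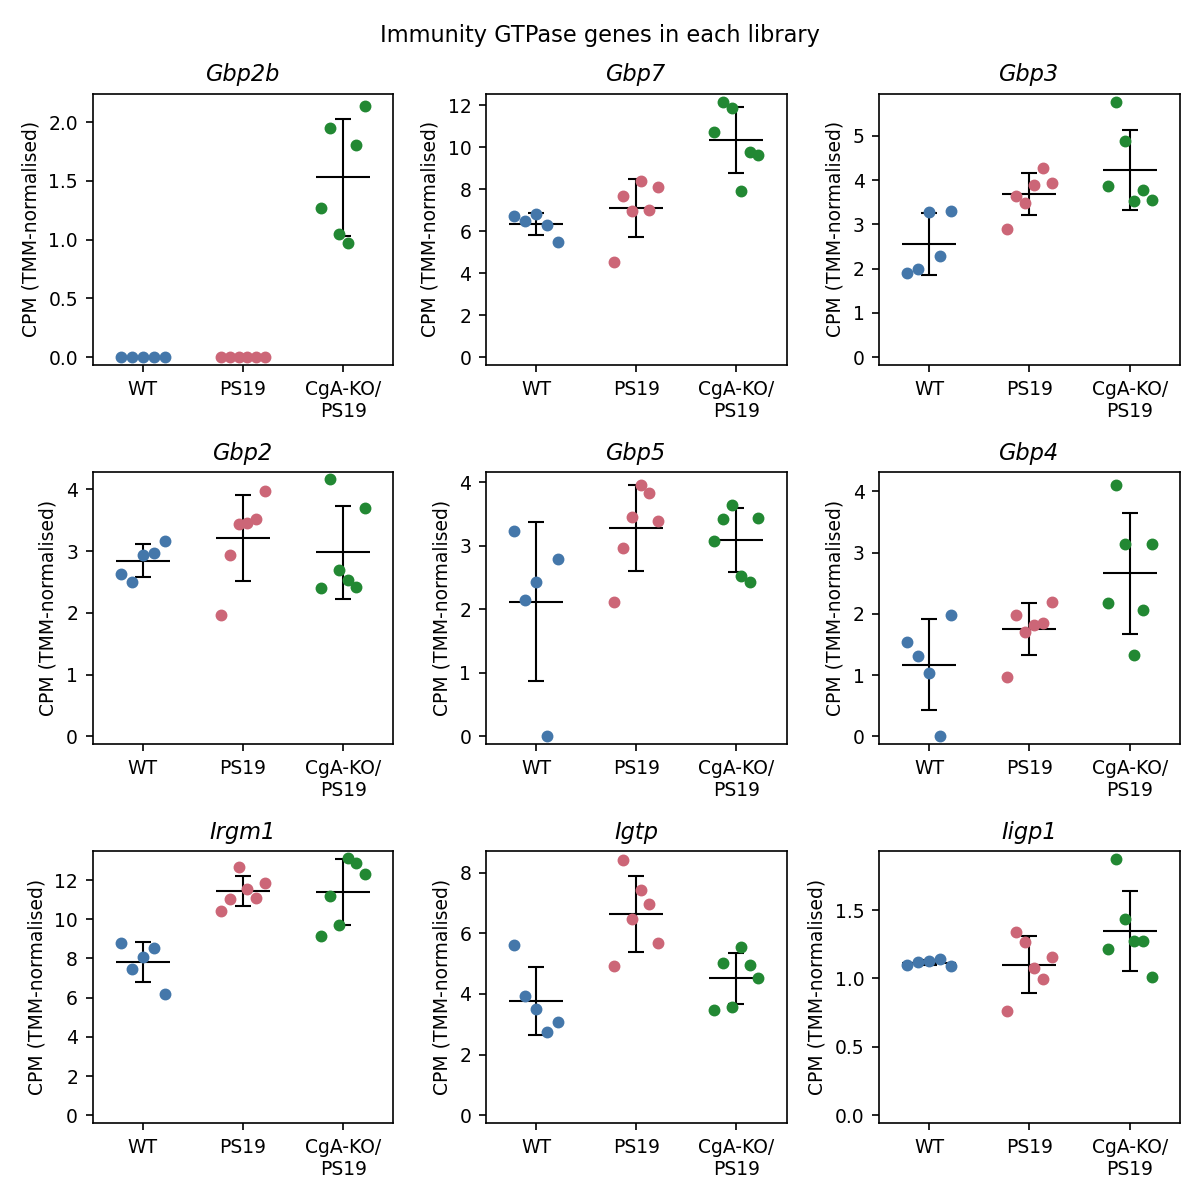
TMM-normalised CPM of each gene (linear axis) in each library, grouped by genotype; dots are libraries and the bars give the mean ± SD (WT n = 5, PS19 and CgA-KO/PS19 n = 6). Gbp2b lies at 0 in WT and PS19 and between 0.969 and 2.14 CPM in CgA-KO/PS19, whereas Irgm1 is lower in every WT library than in any PS19 library.

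On a scale that allows genes to be compared with each other, CPM per kb of annotated exon, Igtp had the highest level in every genotype, at 2.24 ± 0.415 in CgA-KO/PS19, 3.29 ± 0.619 in PS19 and 1.87 ± 0.554 in WT. Irgm1 was next in every genotype, with 1.96 ± 0.287, 1.97 ± 0.132 and 1.35 ± 0.176 CPM per kb in the same order. The ranges of these 2 genes overlapped in WT and in CgA-KO/PS19 and not in PS19. In CgA-KO/PS19 the order continued with Gbp7, Gbp3, Gbp2, Gbp2b, Gbp5, Gbp4 and Iigp1. Gbp2b, at 0.542 ± 0.177 CPM per kb, did not overlap Gbp2 above it (1.19 ± 0.300) but overlapped Gbp5 below it (0.466 ± 0.0764), exceeding Gbp5 in 3 of 6 libraries. The gene at 0 in the other genotypes thus stood in the middle of its family where it was detected. Iigp1 was at 0.189 to 0.231 CPM per kb on average in the 3 genotypes.

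The first comparison asked what loss of CgA changed in PS19 mice. Of the 8 genes besides Gbp2b, only Gbp7 was called, as higher in CgA-KO/PS19, by edgeR's quasi-likelihood test at a Benjamini-Hochberg false discovery rate (FDR) under 0.05. Over all genes tested, 9.72% were called in this comparison, 5.5% as higher and 4.22% as lower in the knockout. The median log2 fold change of the 8 was 0.10, against 0.03 over all genes. A positive value was seen for 4 of the 8. None was called as lower, while 1 (Igtp) had a negative value at an unadjusted p under 0.05 and was called by DESeq2 and by limma voom.

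Gbp7, a GBP of the chromosome 3 cluster, was at 7.89, 10.2 and 12.2 CPM (lowest, median and highest) in CgA-KO/PS19 libraries. In PS19 libraries it was at 4.55, 7.32 and 8.37 CPM. The groups overlapped only through the lowest knockout library, replicate 4. The means were 10.3 ± 1.59 and 7.11 ± 1.37 CPM, a log2 fold change of 0.54 (SE 0.14, FDR = 0.0251, edgeR). The level moved in part with the mitochondrial share. In the knockout, replicates 1 to 3, at 15.3, 18.2 and 13.8% mitochondrial counts, had 10.7, 12.2 and 11.9 CPM of Gbp7. Replicates 5 and 6, at 6.63 and 10.9%, had 9.75 and 9.64 CPM, and replicate 4, at 3.84%, had 7.89 CPM. PS19 replicate 1, at 2.56%, had 4.55 CPM, but PS19 replicate 2, at 2.86%, had 7.66 CPM. WT replicate 4, at 7.94%, had 6.27 CPM, below WT replicates 1 to 3 (6.49 to 6.81 CPM, at 3.53 to 4.08%). After removal of the genotype means, r with the log2 share was 0.63 over the 17 libraries. With that share as a covariate, chosen after seeing the data, the log2 fold change was 0.16 and the call was lost (FDR = 0.9999). Over all genes, 75 were called with this covariate and 2242 without it. Only knockout replicate 4 lay within the PS19 range of the share, so share and genotype can hardly be told apart. The part of RNA quality in the difference was otherwise not tested.

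The call of Gbp7 was also lost without CgA-KO/PS19 replicate 1, 2 or 3 (FDR = 0.0517, 0.0642 and 0.053), with no filter on low counts (FDR = 0.0655), with the alike libraries of each genotype summed (FDR = 0.112), and with the striatum marker score as a covariate (log2 fold change 0.44, FDR = 0.103). The gene overlaps the processed pseudogene Gm43802, and 10.0% of its 100-base windows occur in another annotated transcript, so its reads may be shared.

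Igtp, which regulates other IRGs at membranes, had the largest negative value of the 8. It ranged from 3.46 to 5.56 CPM in CgA-KO/PS19 (median 4.75) and from 4.92 to 8.41 CPM in PS19 (median 6.72), so the groups overlapped. The means of 4.52 ± 0.840 and 6.64 ± 1.25 CPM gave a log2 fold change of -0.56 (SE 0.18), which did not pass the threshold (FDR = 0.0566, edgeR), and was -0.23 with the mitochondrial share as a covariate. It passed with DESeq2 (FDR = 0.0197) and with only the 2 genotypes in the fit (FDR = 0.0373). Of its 100-base windows, 5.16% also occur in Irgm2.

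Unlike Gbp2b, its neighbours in the cluster had counts in every genotype, and of these only Gbp7, above, was called against PS19. Gbp2, the next gene downstream, was at 2.41 to 4.16 CPM in CgA-KO/PS19 and 1.97 to 3.97 CPM in PS19 (log2 fold change -0.12, SE 0.18, FDR = 0.713). Gbp3, the next gene upstream, had 0.20 (SE 0.17, FDR = 0.483), and Gbp5, at the far end, -0.09 (SE 0.35, FDR = 0.899). Groups overlapped for each of these genes.

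Gbp4 had the largest positive value of the 8 but did not pass the test. It was at 1.33, 2.66 and 4.10 CPM (lowest, median, highest) in CgA-KO/PS19 and at 0.965, 1.84 and 2.20 CPM in PS19. The groups overlapped, and the log2 fold change was 0.59 (SE 0.37, FDR = 0.314). Irgm1 was at 11.4 ± 1.67 CPM in CgA-KO/PS19 and 11.4 ± 0.764 CPM in PS19 (log2 fold change -0.01, SE 0.11, FDR = 0.978), and Iigp1, an effector IRG, at 1.35 ± 0.292 and 1.10 ± 0.206 CPM (0.29, SE 0.17, FDR = 0.296).

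**Figure D2:**
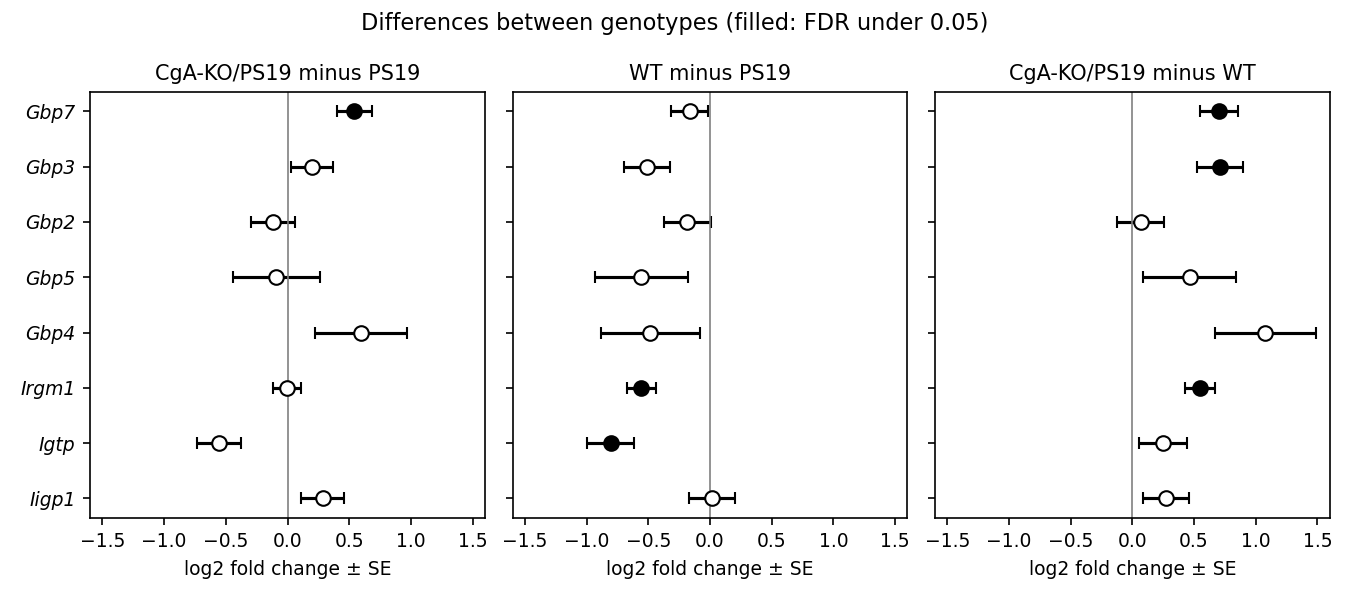
Log2 fold change ± SE (edgeR) of the 8 genes besides Gbp2b in the 3 comparisons; filled dots have an FDR under 0.05. Gbp7 is filled in both comparisons of CgA-KO/PS19, at 0.54 against PS19 and 0.70 against WT, and Irgm1 and Igtp are filled on the negative side in WT minus PS19.

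The second comparison, WT against PS19, addressed the effect of the Tau transgene, and it shares the PS19 libraries with the first. Of the 8 genes, 2 were lower in WT (Irgm1 and Igtp) and none was higher, where 5.9% of all genes tested were called, 3.95% as higher and 1.95% as lower. The median log2 fold change of the 8 was -0.50, against -0.01 over all genes, and 1 of the 8 had a positive value. None was higher by edgeR, DESeq2 or voom, nor at an unadjusted p under 0.05.

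Irgm1, a regulatory IRG, was at 8.76, 7.49, 8.06, 8.55 and 6.21 CPM in WT replicates 1 to 5. In PS19 it was at 10.4, 11.3 and 12.6 CPM (lowest, median, highest). Every WT library was below every PS19 library. The means were 7.82 ± 1.02 and 11.4 ± 0.764 CPM (log2 fold change -0.56, SE 0.12, FDR = 0.0102). With the alike libraries summed the FDR was 0.0532 for Irgm1 and 0.0781 for Igtp. Over all genes, 5.13% had WT libraries that lay wholly below the PS19 libraries.

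Igtp was at 5.61, 3.94, 3.50, 2.74 and 3.09 CPM in WT replicates 1 to 5. Against the PS19 range of 4.92 to 8.41 CPM, WT replicate 1 was the only WT library that overlapped. The log2 fold change was -0.81 (SE 0.19, FDR = 0.0181) between means of 3.78 ± 1.12 and 6.64 ± 1.25 CPM. The call was lost without WT replicate 5 (log2 fold change -0.73, FDR = 0.0671).

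The striatum marker score, the mean centred log2(CPM + 1) of the 12 markers, moved with both genes. It lay between 0.932 and 2.54 in WT, between -1.31 and 1.86 in CgA-KO/PS19 and between -1.47 and -1.22 in PS19. With the score as a covariate, the WT minus PS19 value of Irgm1 was -0.13 (FDR = 0.61) and that of Igtp -0.27 (FDR = 0.554). Within CgA-KO/PS19, Irgm1 was at 9.17 and 9.69 CPM in replicates 1 and 3, whose scores were 1.83 and 1.86, and at 12.3 to 13.1 CPM in replicates 4 to 6, whose scores were at most -1.22. Igtp was at 3.46 and 3.58 CPM in the former libraries and at 4.53 to 5.56 CPM in the latter. After removal of the genotype means, the correlation over the 17 libraries, which share genotype and depth differences, was -0.82 for Irgm1 and -0.51 for Igtp. In WT and PS19 the score and the genotype did not overlap and cannot be told apart.

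**Figure D3:**
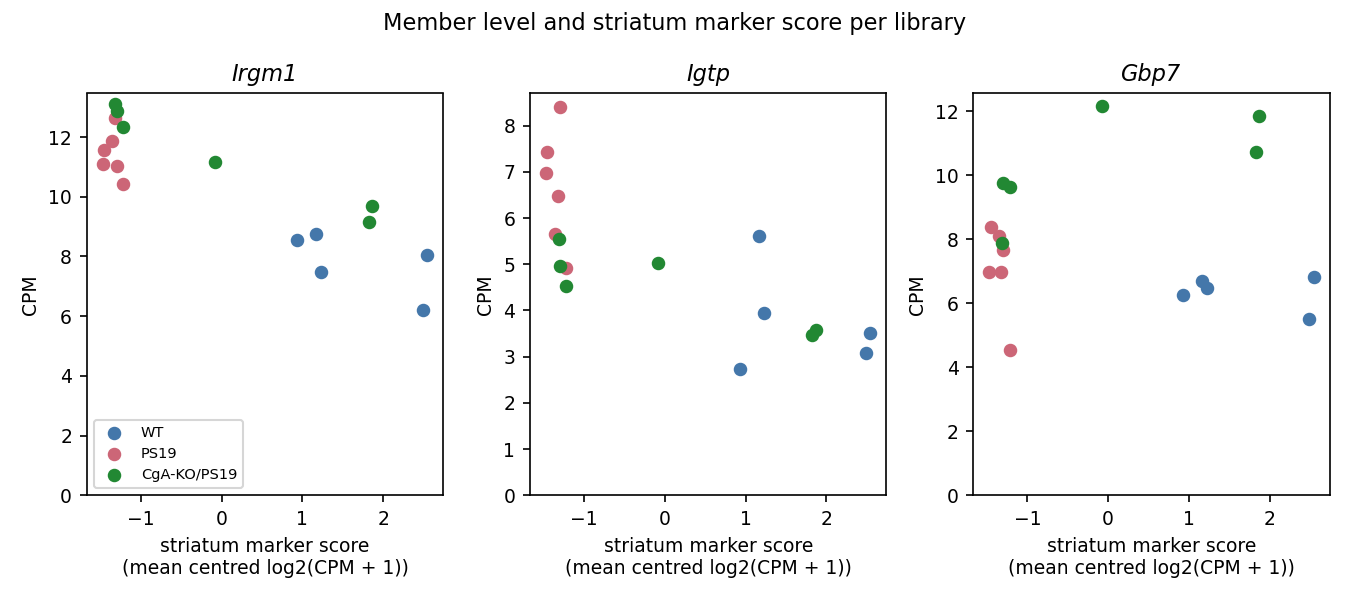
CPM of Irgm1, Igtp and Gbp7 (linear axes) against the striatum marker score in each of the 17 libraries, coloured by genotype. For Irgm1, libraries with high scores are low in both WT and CgA-KO/PS19, while Gbp7 in CgA-KO/PS19 is at 10.7 and 11.9 CPM in the 2 libraries with the highest scores and at 7.89 to 9.75 CPM in replicates 4 to 6.

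Of the GBPs, Gbp3 was at 1.91, 1.98, 3.28, 2.28 and 3.31 CPM in WT replicates 1 to 5 and at 2.90 to 4.28 CPM in PS19. The 2 highest WT libraries reached the PS19 range, and the log2 fold change of -0.51 (SE 0.19) did not pass (FDR = 0.118). Gbp7 (-0.16, FDR = 0.578) and Gbp2 (-0.18, FDR = 0.629) did not pass either. Gbp5 and Gbp4 had 0 counts in WT replicate 4, the shallowest library, and log2 fold changes of -0.56 and -0.48 (FDR = 0.43 and 0.529), or -0.32 and -0.27 without that library. Without WT replicate 5, Gbp4 was at -0.73. Iigp1 was at 1.09 to 1.14 CPM in the 5 WT libraries and 0.765 to 1.34 CPM in PS19 (log2 fold change 0.01, SE 0.19).

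The third comparison, CgA-KO/PS19 against WT, shares libraries with both others. Here 3 of the 8 genes were higher in CgA-KO/PS19 (Gbp7, Gbp3 and Irgm1) and none was lower, where 6.46% of all genes were called, 3.56% as higher and 2.89% as lower. The libraries of these 3 genes did not overlap between the genotypes, as for 2.06% of all genes in that direction. The median log2 fold change of the 8 was 0.51, against 0.01 over all genes, and all 8 had a positive value. None was lower by edgeR, DESeq2 or voom, nor at an unadjusted p under 0.05.

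Gbp7 was at 6.71, 6.49, 6.81, 6.27 and 5.50 CPM in WT replicates 1 to 5, below the knockout range of 7.89 to 12.2 CPM. Its log2 fold change was 0.70 (SE 0.15, FDR = 0.0112, edgeR), and it passed under 12 of 13 other settings and without each of the 17 libraries. The exception was the mitochondrial share as a covariate, which gave 0.38 (FDR = 0.302). Gbp3, with a knockout range of 3.53 to 5.76 CPM, had means of 4.23 ± 0.899 and 2.55 ± 0.693 CPM and a log2 fold change of 0.71 (SE 0.19, FDR = 0.0309). Its call was lost without WT replicate 1 or 2 or CgA-KO/PS19 replicate 2 or 3 (FDR between 0.0591 and 0.0805), with no filter (FDR = 0.0684), with only the 2 genotypes in the fit (FDR = 0.12), with the alike libraries summed (FDR = 0.0781) and with the mitochondrial share as a covariate (0.42, FDR = 0.423).

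Irgm1 had a log2 fold change of 0.55 (SE 0.12, FDR = 0.0125), which was lost with only the 2 genotypes in the fit (FDR = 0.0774) and with the striatum marker score as a covariate (0.29, FDR = 0.0666). Gbp4 had 1.08 (SE 0.41, FDR = 0.125) and passed with DESeq2 alone among the 13 other settings (FDR = 0.021), and was 0.54 with the mitochondrial share as a covariate. Igtp was at 4.52 ± 0.840 and 3.78 ± 1.12 CPM (log2 fold change 0.25, SE 0.19, FDR = 0.497). Gbp2, Gbp5 and Iigp1 had 0.07, 0.46 and 0.27 and did not pass, and Gbp5 had 0.22 without WT replicate 4.

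Levels of the genes were also related to each other across libraries, given here as Pearson correlations of log2(CPM + 0.5) without a test. Within the 6 PS19 libraries, Gbp2 had r of 0.87 to 0.91 with Gbp3, Gbp4, Gbp5 and Gbp7, and the PS19 replicate with the lowest Gbp2, Gbp3, Gbp4, Gbp5 and Gbp7 was replicate 1 in each case. Within the 6 CgA-KO/PS19 libraries, Gbp2b had r of 0.67 with Gbp2, its downstream neighbour, and 0.24 with Gbp7. Irgm1 and Igtp had r of 0.67 over all 17 libraries, 0.91 within CgA-KO/PS19 and 0.16 within PS19.

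The genes whose levels were most like those of each member over the 17 libraries were mostly outside the interferon lists. For Gbp2b, whose pattern was fixed by the choice, they were Gm26782 (r = 0.98), Gm44164 (0.97) and Pop4 (0.97), an RNase P subunit. For Gbp7 they included Slfn8 (0.90), a Schlafen family gene, for Irgm1 Sytl2 (0.91), Dpp4 (0.91) and Hivep1 (0.91), and for Igtp E2f1 (0.94), Galt (0.91) and Vamp1 (0.91). Those of Gbp5, such as Mmgt2 (0.96), rested on WT replicate 4, since r was 0.57 over the other 16 libraries.

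Other GBP and IRG genes were read from a fixed list of 21, of which 18 were tested. Over all genes, 9.72% were called in CgA-KO/PS19 against PS19, 5.9% in WT against PS19 and 6.46% in CgA-KO/PS19 against WT. These shares apply to this list and to those that follow. For the knockout against PS19, 2 were lower and none higher, with a median log2 fold change of 0.47, against 0.03 over all genes. DESeq2 and voom, which also called more genes over all, each called 4 as higher and 2 as lower. The 2 were Irgq, a quasi-GTPase of the IRG family (133 ± 13.9 against 171 ± 7.37 CPM, log2 fold change -0.35, FDR = 0.0179), and Irgc1, an IRG of the testis (0.248 ± 0.135 against 0.906 ± 0.256 CPM, -1.83, FDR = 0.0341). In WT against PS19, 0 of the 18 were called by edgeR, DESeq2 or voom, and 1 had an unadjusted p under 0.05. The knockout against WT had 2 higher genes, Gbp6 (1.33 ± 0.476 against 0.605 ± 0.222 CPM, 1.03, FDR = 0.0358) and Gvin1, a giant interferon-inducible GTPase (6.55 ± 1.68 against 4.01 ± 0.932 CPM, 0.72, FDR = 0.0407). Gbp6 neighbours Gbp4 on chromosome 5. Of the 100-base windows of Gbp4, 1.64% occur in another annotated transcript, most often of Gbp11. Windows of Gbp6 were not compared, but its gene overlaps the model Gm43302, so its reads may be shared.

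**Figure D4:**
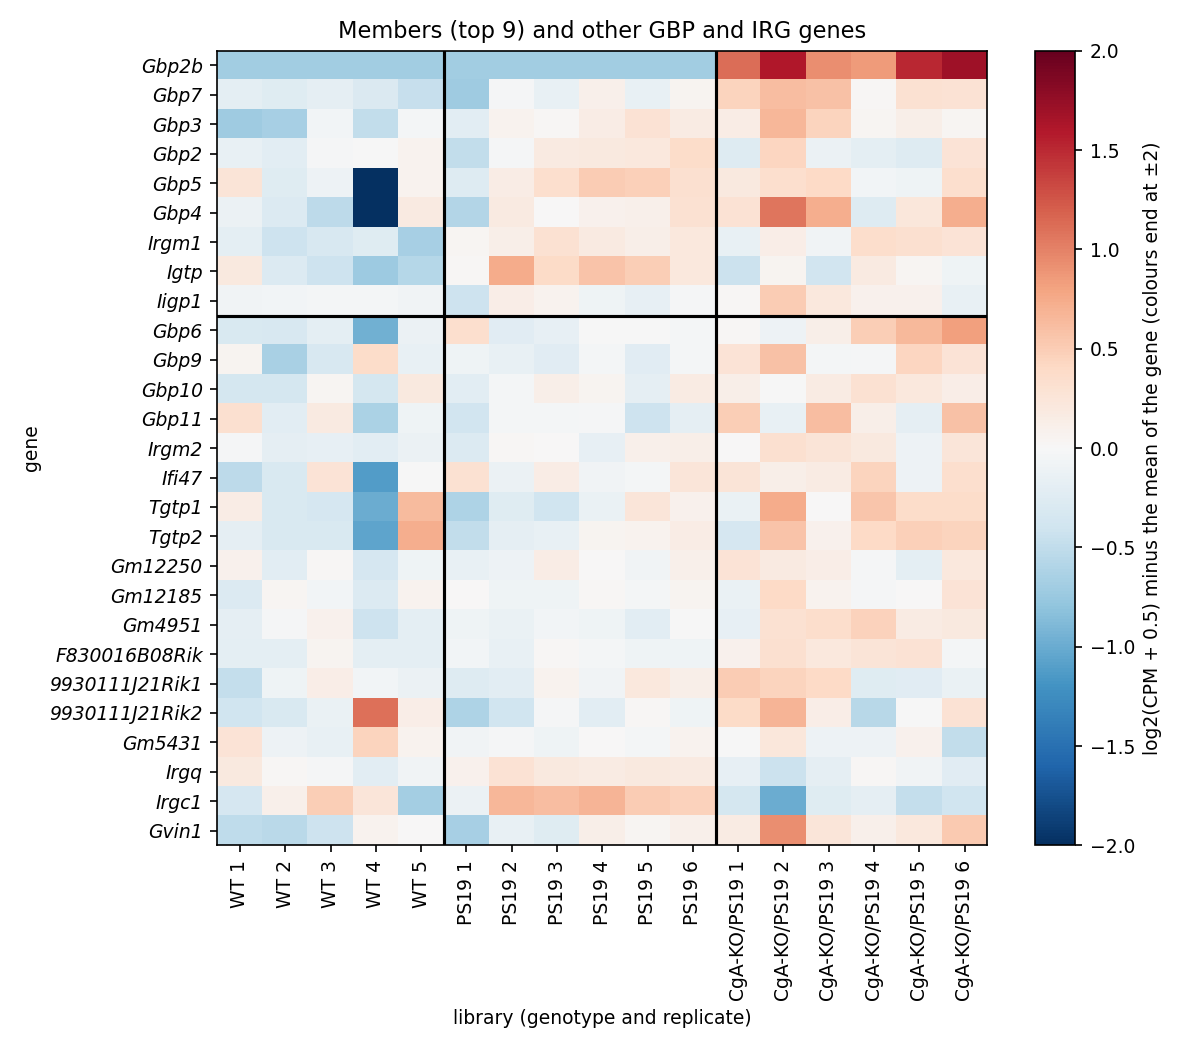
Log2(CPM + 0.5) minus the mean of each gene (colour, ending at ±2) for the 9 genes and 18 other GBP and IRG genes in the 17 libraries, with lines between genotypes. Gbp2b is above its mean in the 6 CgA-KO/PS19 libraries only, and the dark cells of Gbp4 and Gbp5 are WT replicate 4, where both have 0 counts.

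The inducing pathway was measured in the same libraries. Ifng, the ligand, had 0 counts in all 17 libraries. Irf1, a transcription factor of the interferon response, was at 3.50 ± 0.418 CPM in CgA-KO/PS19 and 4.79 ± 0.464 CPM in PS19 (-0.45, FDR = 0.128). Of the 11 tested genes of the ligand, receptor and signalling list, edgeR called 1 between the knockout and PS19, as higher, namely Ptpn2, a phosphatase that dampens this signalling (22.8 ± 4.24 against 16.2 ± 0.935 CPM, 0.49, FDR = 0.024). DESeq2 and voom each called 3 as lower besides 1 as higher, and 3 had a negative value at an unadjusted p under 0.05. None of the 11 was called by edgeR or DESeq2 in the comparisons with WT. In WT against PS19, 2 had an unadjusted p under 0.05 and voom called 1, and in CgA-KO/PS19 against WT there were 0 of either.

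Of 18 other interferon gamma targets tested, 1 was higher and 1 lower in the knockout than in PS19. Ido1, an enzyme of tryptophan breakdown, was at 2.96 ± 3.52 against 0.312 ± 0.0751 CPM (3.25, FDR = 0.0122), and Psmb10, an immunoproteasome subunit, at means of 13.4 and 19.5 CPM (-0.54, FDR = 0.0461). The same 2 genes were called in the same directions in WT against PS19, at 3.52 and -0.72. Ido1 was uneven in the knockout, from 0.453 to 7.74 CPM with a median of 0.936 CPM, and was at 3.48 ± 2.40 CPM in WT. The part of the striatum marker difference in these calls was not tested. For the knockout against WT none was called by edgeR, DESeq2 or voom, and 1 had an unadjusted p under 0.05.

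Of 23 type I interferon targets tested, Oasl2 was higher (0.63, FDR = 0.0489) and Stat2 lower (-0.46, FDR = 0.0249) in CgA-KO/PS19 than in PS19. Ifit3b was lower in WT than in PS19 (-0.55, FDR = 0.0433). Ifit3 (0.67, FDR = 0.0072), Ifit3b (0.95, FDR = 0.0024) and Ifih1, an RNA sensor (0.73, FDR = 0.0461), were higher in CgA-KO/PS19 than in WT. The level of Ifit3b was 7.03 ± 1.06 CPM in the knockout, 5.30 ± 0.698 CPM in PS19 and 3.58 ± 0.740 CPM in WT. These calls are those of edgeR. DESeq2 and voom called 3 and 2 as higher, and 1 each as lower, in CgA-KO/PS19 against PS19. In WT against PS19 they called 3 and 5 as lower, and in CgA-KO/PS19 against WT 5 and 3 as higher. At an unadjusted p under 0.05 there were 4, 6 and 9 in the same order of comparisons.

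Genes of the inflammasome that GBPs act with numbered 11 tested. Aim2, a DNA sensor (2.18 ± 0.712 against 1.25 ± 0.283 CPM, log2 fold change 0.80, FDR = 0.0429), and Il18, a cytokine released on inflammasome activation (12.3 ± 4.02 against 8.26 ± 0.807 CPM, 0.57, FDR = 0.0494), exceeded their PS19 levels in the knockout. Casp1, the inflammasome protease, exceeded its WT level in the knockout (3.18 ± 1.32 against 1.47 ± 0.450 CPM, 1.10, FDR = 0.0237). Of 12 autophagy genes tied to IRGs, Map1lc3a (-0.48, FDR = 0.0482) and Tecpr1 (-0.69, FDR = 0.0207) were lower in CgA-KO/PS19 than in PS19, and Map1lc3a (-0.57, FDR = 0.0392) and Map1lc3b (-0.50, FDR = 0.0078), which encode LC3 proteins, were lower in WT than in PS19.

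Markers of cells that can express these GTPases were also read. None of 12 microglia markers and none of 9 endothelial markers was called by edgeR or DESeq2 in any of the 3 comparisons. In CgA-KO/PS19 against PS19, WT against PS19 and CgA-KO/PS19 against WT, 3, 0 and 3 of the microglia markers had an unadjusted p under 0.05, as did 0, 1 and 2 of the endothelial markers. Voom called 3, 0 and 1 of the microglia markers and 0, 1 and 0 of the endothelial markers. The summed microglia level ranged over 227 to 394 CPM in CgA-KO/PS19, 297 to 368 CPM in PS19 and 312 to 342 CPM in WT libraries. The summed endothelial level ranged over 207 to 282, 189 to 264 and 193 to 239 CPM, respectively. Gbp7 had r of 0.78 with the endothelial score after removal of the genotype means (17 libraries), and with that score as a covariate its call in CgA-KO/PS19 against PS19 remained, while Igtp was no longer called in WT against PS19 (-0.73, FDR = 0.0889) nor Gbp3 in CgA-KO/PS19 against WT (0.53, FDR = 0.117). Of 8 astrocyte markers, Aqp4 (0.67, FDR = 0.0366) and Slc1a3 (0.51, FDR = 0.0465) were higher in CgA-KO/PS19 against PS19. Against WT, 1 of the 8 was higher in the knockout by edgeR, 4 by DESeq2 and 5 at an unadjusted p under 0.05, and in WT against PS19, 1 was lower by edgeR and 2 by DESeq2. Of 8 oligodendrocyte markers, 2 were higher in the knockout than in WT by edgeR and DESeq2, and 1 was higher than in PS19 by edgeR and 3 by DESeq2. Their summed level ranged over 1565 to 2996 CPM in CgA-KO/PS19, 1269 to 1818 CPM in PS19 and 1126 to 1843 CPM in WT libraries. The part of these cells in the higher knockout values of Gbp7, Gbp3 and Irgm1 was not tested. Gbp7 had r of 0.68 with the astrocyte score after removal of the genotype means, and the part of astrocyte RNA in its values was not tested. Of 10 T and NK cell markers, 2 could be tested, and the summed level ranged over 10.5 to 37.8 CPM in WT, 1.64 to 25.4 CPM in the knockout and 1.01 to 1.41 CPM in PS19. Cd4 alone had means of 20.3, 9.20 and 0.786 CPM in these groups. Of the 10 markers, 4 had 0 counts in every WT library and 4 in every knockout library. The score of the 2 tested markers averaged 0.82, 0.09 and -0.78 in these groups, the same order as the striatum score (1.67, -0.04 and -1.35). Irgm1 had r of -0.82 with each of these scores after removal of the genotype means. Its r was also 0.80 with the score of cortical neuron markers and -0.68 with that of oligodendrocyte markers. With choroid plexus and microglia markers it was -0.61 and -0.60. The part of each cell type or region in the level of Irgm1 was not tested. Whether T or NK cells were present was not tested.

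The surroundings of Gbp2b on chromosome 3 were then examined, since the Tau transgene lies on that chromosome. Of the 11 other tested genes that start within 1 Mb of Gbp2b, 0 were called by edgeR, DESeq2 or voom in any comparison. At an unadjusted p under 0.05 there was 1 such gene against PS19 and there were 2 against WT in the knockout, and 0 in WT against PS19. Within 5 Mb, 11 of 65 were called in CgA-KO/PS19 against PS19, or 16.9%, 9 of them higher. Over all genes, 9.72% were called in this comparison, 5.5% as higher. In each comparison with WT, 7 of 65 were called, or 10.8%. Over all genes the shares were 5.9% in WT against PS19 and 6.46% in CgA-KO/PS19 against WT.

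The called genes nearest to Gbp2b in CgA-KO/PS19 against PS19 were Sh3glb1 (log2 fold change 0.36, 2.09 Mb away), Col24a1 (1.96) and Ccn1 (1.56, 3.05 Mb away). In the comparisons with WT they were the netrin receptor gene Unc5c, 1.13 Mb before Gbp2b, and the noncoding loci 4930590L14Rik and Gm6214, 1.64 and 1.76 Mb before it. Col24a1 was also called as higher in WT than in PS19 (1.44). 4930590L14Rik had 0 counts in all 5 WT libraries, 28 to 179 counts in the PS19 libraries and 29 to 206 counts in the CgA-KO/PS19 libraries. It thus had counts in both genotypes with the transgene, whereas Gbp2b had counts only in CgA-KO/PS19. Without a knockout lacking the transgene, what Gbp2b followed in these mice cannot be told apart. The level of 4930590L14Rik was 0.725 ± 0.194 CPM in PS19 and 1.04 ± 0.400 CPM in CgA-KO/PS19.

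**Figure D5:**
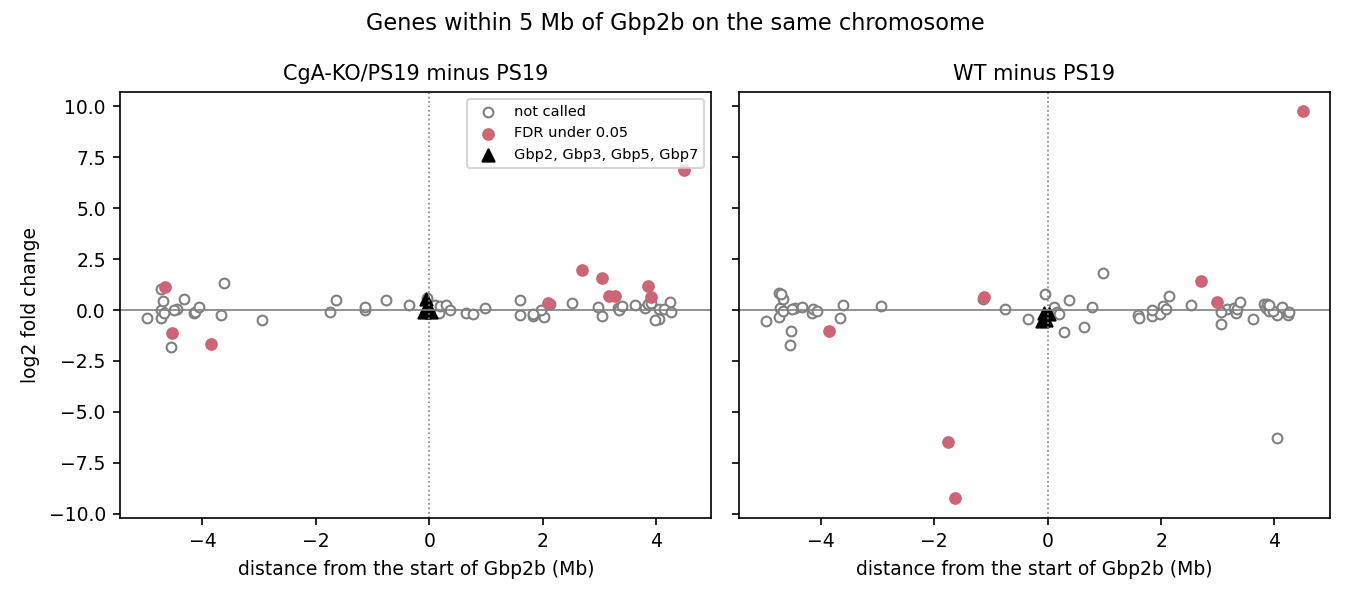
Log2 fold change (edgeR) of the 65 tested genes around Gbp2b against their distance from its start in Mb, for CgA-KO/PS19 minus PS19 (left) and WT minus PS19 (right); filled circles have an FDR under 0.05 and triangles are Gbp2, Gbp3, Gbp5 and Gbp7. No circle within 1 Mb is filled, and the 2 lowest filled circles on the right, at -1.76 and -1.64 Mb, are genes with 0 counts in all WT libraries.

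Around the other genes the shares called within 5 Mb in CgA-KO/PS19 against PS19 were 7.32% of 123 genes for Gbp4, 6.36% of 173 for Igtp, 10.8% of 111 for Irgm1 and 9.21% of 76 for Iigp1. Over all genes the share was 9.72%. Next to Gbp4, the protein-coding model Gm43302, which overlaps Gbp6, was at 1.46 ± 0.478 CPM in CgA-KO/PS19, 0.726 ± 0.111 CPM in PS19 and 0.491 ± 0.284 CPM in WT. Its knockout level exceeded that of PS19 (log2 fold change 0.99, FDR = 0.0388) and that of WT (1.44, FDR = 0.0134).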

How the data were processed

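The authors trimmed paired-end reads (Trimmomatic 0.39), aligned them to mm10 (STAR 2.7.10b) and quantified genes (StringTie 1.3.6), and the deposited table holds raw counts per gene and library, converted from coverage, with 1 fragment taken here as roughly 3 counts. The annotation release and the use of strand are not given in the sources used here. The 9 genes and all lists were chosen with earlier results of these data known. Counts of all 17 libraries entered 1 fit in edgeR 4.0.16 (R 4.3.3; TMM, filterByExpr, glmQLFit and glmQLFTest) with Benjamini-Hochberg adjustment over 23062 genes, and a call was an FDR under 0.05. The script was tested on simulated data. Standard errors are the log2 fold change over the square root of F. Nothing in the labels says more of replicates than that they are separate samples, so p-values measure the spread between these libraries. Limits for 0 counts (3 fragments, 9 counts) cover counting error only. Alternatives were DESeq2 1.42.0, limma 3.58.1 (voom with quality weights), DESeq2 size factors, no filter, 2 genotypes only, a replicate block, marker covariates, summed libraries, the study's threshold and leaving out each library. The level of Ddx3y, a Y-linked gene, and the log2 percentage of mitochondrial counts as covariates were added after seeing the data. Coordinates are from GENCODE M21 (GRCm38), matched by gene ID for 52029 genes, so lengths may differ from the authors' annotation. Named besides the 9 genes are, from each pathway list, every gene called if 6 or fewer; Ifng and Irf1 (1 further gene of this rule is not reported here); genes among the 3 most correlated with a member; and called genes among the 3 nearest to a member. Markers are given as counts; Aqp4, Slc1a3 and Cd4 were named after their values were seen.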

Additional observations from a re-analysis of the deposited data

Results flagged for a closer look

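Gbp7 was at 4.55 CPM in PS19 replicate 1, apart from the other 5 PS19 libraries, which were at 6.98 to 8.37 CPM; the gap was 0.635 of the whole range of the 6 libraries. Chance sets apart about 1 in 20 such groups, and this was 1 of 25 groups examined.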

How the results depend on the processing

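Counts over all genes moved by more than 1.5 times with the method: in CgA-KO/PS19 against PS19, 2242 genes were called, and 3970 with DESeq2, 5229 with limma voom, 159 with the alike libraries summed, and 1072 and 4206 with the striatum or microglia score as a covariate (1019 to 3822 when 1 library was left out). In WT against PS19, 1361 were called, and 2408 with DESeq2, 2275 with only 2 genotypes in the fit, 3967 with voom, 430 with libraries summed, and 3591, 2338 and 764 with the striatum, microglia or endothelial score (632 to 1658 with 1 library left out). For the knockout against WT, 1489 were called, and 2621, 266, 2458 and 571 under the same 4 settings and 4912, 2596 and 766 with the same scores (627 to 2099 with 1 library left out). With the mitochondrial share as a covariate, chosen after seeing the data, 75 genes were called in CgA-KO/PS19 against PS19, 1514 in WT against PS19 and 253 for the knockout against WT. The cause was not tested.

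Of the 8 genes besides Gbp2b, 1 was called in CgA-KO/PS19 against PS19. It was 2 (Igtp added) with DESeq2, with only 2 genotypes, with voom, with the microglia score and at the study's threshold, and 0 with no filter, with libraries summed and with the striatum score or mitochondrial share (0 to 2 with 1 library left out). In WT against PS19 it was 2, and 0 with libraries summed, 1 with the striatum score (Gbp3 in place of Irgm1 and Igtp) and 1 with the endothelial score (1 to 2 with 1 library left out). For the knockout against WT it was 3, and 1 with only 2 genotypes (Gbp7) or with the mitochondrial share (Irgm1) (2 to 3 with 1 library left out).

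Replicate numbers did not pair the samples: of 16 same-numbered pairs, 2 had deviations correlated over 0.1 (median -0.0403), and 3 of 17 libraries correlated best with their own number. With the number as a replicate block, 654, 660 and 614 genes were called in the 3 comparisons in the order above, and 0, 0 and 1 of the 8 genes. The block also gave Gbp2 a log2 value of -0.015 in CgA-KO/PS19 against WT.

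Signs of log2 fold changes turned only for values that passed no test. In CgA-KO/PS19 against PS19, Gbp2 was 0.029 and Gbp5 0.011 with libraries summed, Gbp5 was 0.022 with the endothelial score, and Gbp3 was -0.00016 with the striatum score and -0.15 with the mitochondrial share. Irgm1 was 0.0088 with DESeq2 and 0.011 with its size factors, 0.0058 with only 2 genotypes, 0.053 with libraries summed, 0.17 with the striatum score and 0.14 with the mitochondrial share (-0.044 to 0.050 with 1 library left out). In WT against PS19, Gbp7 was 0.11 with the endothelial score, and Iigp1 was -0.0095 with no filter, -0.0053 with libraries summed, -0.096 with the striatum score, -0.0051 with Ddx3y as a covariate and -0.022 with the mitochondrial share (-0.068 to 0.080 with 1 library left out). In CgA-KO/PS19 against WT, Gbp2 was -0.046 with the endothelial score and -0.27 with the mitochondrial share (-0.050 to 0.12 with 1 library left out), and Igtp was -0.071 with the striatum score. The mean of Gbp2b was 1.41 to 1.64 CPM with 1 library left out. WT replicate 4 limits what can be said of genes near its limit of 1.03 CPM, such as Gbp4, Gbp5, Iigp1 and Gbp2b.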
